A study of Homo sapiens with 6 samples.

Results

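The integrated stress response is the program by which cells slow protein synthesis and raise a defined set of genes under amino acid shortage, endoplasmic reticulum stress or other stress. Kinases phosphorylate the initiation factor eIF2, general translation slows, and the mRNA of the transcription factor ATF4 is translated more. ATF4 then pairs with C/EBP factors and activates genes for amino acid uptake, amino acid synthesis and one-carbon metabolism. Because much of this control acts on translation and on eIF2 phosphorylation, mRNA counts measure the target genes of the program more directly than ATF4 activity itself.

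A set of 34 genes of this program was examined in A549 cells, a human lung adenocarcinoma line. The genes were chosen by name as parts of the integrated stress response or as ATF4 targets, with earlier results of these data known. Shares of these genes set beside all tested genes are therefore descriptive. Each gene is 1 row among the 58735 genes of the count table. All 34 had enough counts to be tested, among 15754 tested genes. RNA-seq was performed on 3 libraries of A549 cells that overexpress IL17D and on 3 libraries of A549 cells with the empty vector (control). According to the study's methods, the lentiviral vector carries the human PGK promoter and an IRES-GFP cassette, and the IL17D reading frame was amplified from cDNA of H82 cells. Both groups grew in RPMI1640 medium with serum, with no stressor named in the labels. Whether libraries with the same label were grown as separate cultures is not given in the sources used here, so the p-values measure only the spread between these libraries, which may be technical.

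Library totals lay between 14319398 and 16521021 counts. IL17D itself had 18 to 34 counts in the control libraries and 26772 to 32155 counts in the IL17D libraries, a log2 fold change of 10.19 (standard error 0.062). The keratins KRT8, KRT18 and KRT7 were abundant in every library, whereas EPCAM had 9 to 21 counts and KRT19 3 to 11 counts. CDH1 was lower in IL17D-overexpressing cells (log2 fold change -0.28, adjusted p = 0.0306 from edgeR), and its part in the results below was not tested. The epithelial list of 6 genes summed to 12676 to 13243 CPM (counts scaled to the size of the library) in control and 12313 to 12608 CPM in IL17D libraries. The leukocyte list of 5 genes summed to at most 1.66 CPM in any library and PTPRC was at 0 in all 6, which allows up to 3 counts per library. The endothelial list of 3 genes summed to at most 0.605 CPM. The fibroblast list of 4 genes summed to 22.3 to 24.6 CPM in control and 19.2 to 23.3 CPM in IL17D libraries, of which COL1A1 made up nearly all.

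ATF4 and a C/EBP partner bind a composite element with the core TTGCATCA. The RefSeq promoter windows (GRCh38.p14, 250 bases before to 50 after a transcript start) were searched for this core on both strands, and windows were found for 28 of the 34 genes. The core was present for 4 of these 28 genes (14.3%) and for 1.08% of all 27305 genes with a window. By window, it was in 4 of 44 windows of these genes (9.09%) and in 0.866% of all 35116 windows. Allowing any base at the fifth position (TTGCNTCA, which includes the first core) added no further match among these genes. TTGCNTCA was thus in 9.09% of their windows and 3.22% of all windows. By gene, the shares were 14.3% of these genes and 4.01% of all genes with a window. These genes were chosen partly as known ATF4 targets, so a higher share is partly given by that choice and was not tested. The 4 matches are shown because they mark the sequence through which ATF4 is known to reach its targets. Each line gives 30 bases of the gene's strand from 5′ to 3′, and capitals mark the core or its reverse complement.

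CHAC1: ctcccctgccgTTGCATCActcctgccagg
SLC1A4: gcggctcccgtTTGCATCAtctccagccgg
CEBPG: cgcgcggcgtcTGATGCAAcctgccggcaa
SLC1A5: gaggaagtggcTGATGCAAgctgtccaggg

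The CHAC1 stretch lies at chr15:40953251-40953280 on the plus strand, with the core starting 209 bases before the RefSeq start, and GENCODE release 29 places it in a non-coding part of a CHAC1 exon. The SLC1A4 stretch lies at chr2:64989381-64989410 on the plus strand, with the core starting 7 bases before a start and partly in a non-coding part of an exon. The CEBPG stretch lies at chr19:33374060-33374089 on the plus strand, 42 bases before a start, in an intron. The SLC1A5 stretch lies at chr19:46784893-46784922 on the minus strand, 97 bases before a start and partly in a non-coding part of an exon. A match describes letters in a window and is not evidence of binding. CHAC1, SLC1A4 and CEBPG had unadjusted p-values of 0.892, 0.153 and 0.239 from edgeR's quasi-likelihood test between the groups, and SLC1A5 had 0.0163.

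The 34 genes covered a wide range of expression. Per kilobase of exon, the highest control levels were those of SLC7A5 (821 CPM per kb) and SLC3A2 (249 CPM per kb), the light and heavy chains of the LAT1 transporter for large neutral amino acids. ATF4 was the third, with 144 CPM per kb. PSAT1 followed with 118 CPM per kb, and CEBPB and DDIT4 with 105 CPM per kb each. At the other end of the range were NUPR1 (0.331 CPM per kb) and ASNS (0.971 CPM per kb). The level of ASNS is uncertain, because 44.6% of its exon length is shared with another gene on the same strand. Lengths are those of merged exons, which can exceed the length of the expressed transcript. DDIT3, which encodes the stress factor CHOP, had 7.23 CPM per kb, and CHAC1, a glutathione-degrading enzyme known as a sensitive ATF4 target, had 4.12 CPM per kb.

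**Figure D1:**
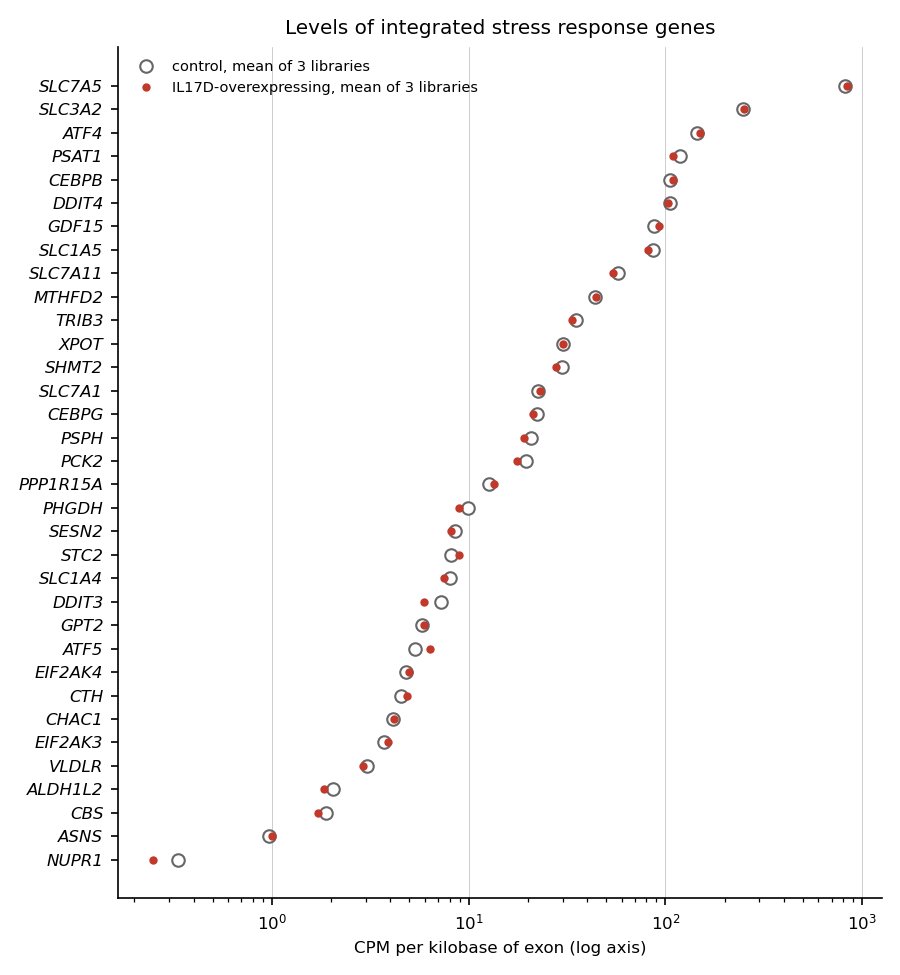
Mean level of each of the 34 genes in CPM per kilobase of exon, on a log axis, in control (open circles) and IL17D-overexpressing cells (red points), 3 libraries each. Levels span from 0.331 for NUPR1 to 821 for SLC7A5 in control cells, and the paired points lie close together for most genes. The level of ASNS is uncertain because it shares exons with another gene.

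The first question was whether IL17D overexpression changed the program. None of the 34 genes passed an adjusted p of 0.05 in edgeR's quasi-likelihood test, in either direction. Among all tested genes, 0.673% were called higher and 0.908% lower at that threshold, 1.58% in either direction. DESeq2's Wald test and limma voom also called none of the 34. At an unadjusted p under 0.05, 3 of the 34 genes were higher and 7 were lower in IL17D-overexpressing cells, against 5.59% higher and 5.99% lower (11.6% in either direction) among all tested genes. The counts of 3 and 7 correspond to 8.82% and 20.6% of the 34. Shares over all tested genes were not matched for expression level, here or for the lists below. DESeq2 gave 1 higher and 6 lower, and limma voom 4 higher and 7 lower. The count of 7 dropped to 4 without IL17D replicate 1, 4 without IL17D replicate 3 and 3 without control replicate 1, and the count of 3 was 0 without control replicate 2 and 1 without control replicate 3. The groups did not overlap for 2 genes that were higher and 7 that were lower in IL17D libraries, against 7.48% and 8.31% (15.8% together) of all tested genes. The median log2 fold change was -0.016 over the 34 genes and -0.00044 over all tested genes, with 16 of the 34 above 0 and 18 below.

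The intervals show how large a difference these libraries leave room for. The 95% interval of the log2 fold change lay within 0.3 of 0 on both sides for 27 of the 34 genes, which is less than a 1.23-fold difference, and within 0.5 for 32 genes. The exceptions at 0.5 were DDIT3 (lower end -0.55) and NUPR1 (-1.05 to 0.23), the latter with 16 to 32 counts per library. Counts are relative to the library, so a higher share of responding cells and more RNA per cell cannot be told apart.

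**Figure D2:**
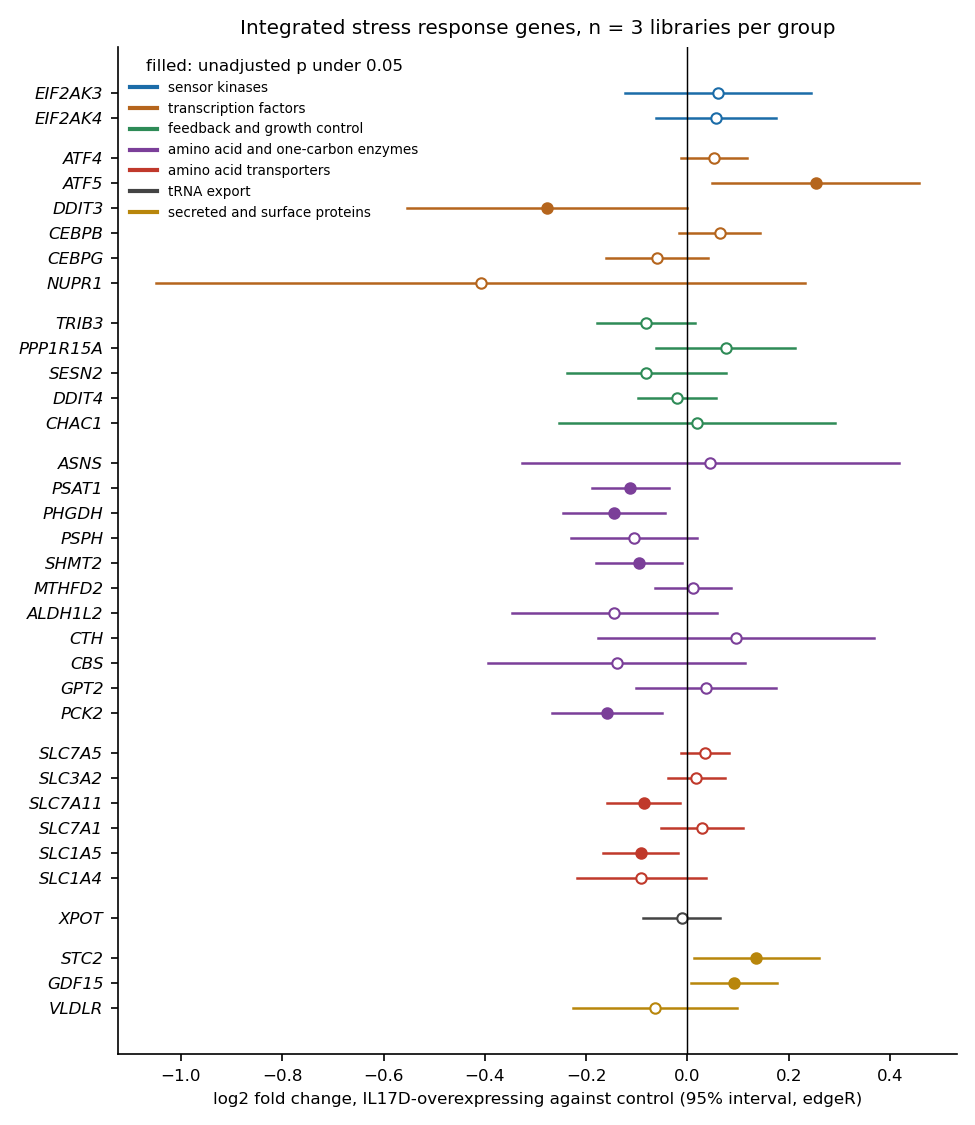
Log2 fold change of each gene in IL17D-overexpressing against control cells, with its 95% interval from edgeR (3 libraries per group), ordered and colored by role. Filled points mark the 10 genes with an unadjusted p under 0.05, none of which passed after adjustment.

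The 2 eIF2 kinases of the set were close to their control level. EIF2AK3 encodes PERK, the kinase activated by endoplasmic reticulum stress, and had 20.2 ± 1.44 CPM in control and 21.1 ± 0.592 CPM in IL17D-overexpressing cells (SD, n = 3 each). EIF2AK4 encodes GCN2, the kinase activated by uncharged tRNA, and had 57.5 ± 2.93 CPM and 59.8 ± 3.002 CPM (SD, n = 3 each). Their log2 fold changes were 0.060 (standard error 0.090) and 0.056 (standard error 0.059). These kinases act by phosphorylation, which counts do not measure.

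ATF4 (ENSG00000128272, chromosome 22 of GRCh38, 39519695 to 39522685) is the central transcription factor of the program. It had 366, 359 and 360.1 CPM in control replicates 1, 2 and 3, and 374, 374 and 378 CPM in IL17D replicates 1, 2 and 3. All 3 IL17D libraries were therefore above all 3 control libraries, by a small amount. The log2 fold change was 0.052 (95% interval -0.013 to 0.12, adjusted p = 0.588 from edgeR), so the upper end of the interval is a 1.085-fold difference. Of the 31-base stretches of ATF4 transcripts, 29.7% also occur in other genes, among them the pseudogenes ATF4P3 and ATF4P4, which had 82 and 2 counts in all libraries together.

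ATF5 and DDIT3 lay on opposite sides of ATF4. ATF5 (ENSG00000169136, chromosome 19, 49928702 to 49933935) is a related factor whose translation is also favored by eIF2 phosphorylation. Its levels were 15.8, 15.1 and 16.5 CPM in the control libraries and 16.9, 19.0 and 20.8 CPM in the IL17D libraries. The groups did not overlap, and IL17D replicate 1 was the closest to control. ATF5 had the largest positive log2 fold change of the 34 genes, 0.25 (standard error 0.10, 95% interval 0.049 to 0.46, unadjusted p = 0.0165, adjusted p = 0.284 from edgeR). Without IL17D replicate 3 its log2 fold change was 0.18. The exons of ATF5 overlap those of NUP62 on the other strand over 21.2% of their length, and NUP62, which had 11314 counts over all libraries, had a log2 fold change of 0.0095.

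DDIT3 (ENSG00000175197, chromosome 12, 57516588 to 57521737), which encodes CHOP, a factor linked to cell death under prolonged stress, had 9.42, 9.40 and 9.51 CPM in the control libraries. In the IL17D libraries it had 6.99, 9.06 and 7.29 CPM. Every IL17D library was lower than every control library, with IL17D replicate 2 near the control range. The log2 fold change was -0.28 (standard error 0.14, 95% interval -0.55 to -0.0012, unadjusted p = 0.0490, adjusted p = 0.430 from edgeR). In DESeq2's Wald test the unadjusted p of DDIT3 was 0.0969. Over the 13 alternatives it was under 0.05 in 5. The counts were 104 to 153 per library. DDIT3 exons overlap those of MARS on the other strand over 27.2% of their length, and MARS had 20739 counts in all libraries together with a log2 fold change of -0.031. The strand setting of the counting is not given in the sources used here, so reads of DDIT3 and MARS in that overlap cannot be told apart.

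None of the remaining factors had an unadjusted p under 0.05 in edgeR's test. CEBPB, a C/EBP factor also induced by inflammatory signals, had a log2 fold change of 0.064 (95% interval -0.016 to 0.14). CEBPG, which dimerizes with ATF4, had -0.060 (95% interval -0.16 to 0.041). NUPR1, a small stress-induced chromatin protein, was at 1.88 ± 0.103 CPM in control and 1.41 ± 0.291 CPM in IL17D-overexpressing cells (SD, n = 3 each). Its groups did not overlap, but its interval was the widest of the set, -1.05 to 0.23 in log2, and its unadjusted p was 0.204 in edgeR.

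Genes that feed back on the program or restrain growth gave no call. TRIB3, a pseudokinase that binds ATF4 and is one of its targets, had 128, 123 and 113 CPM in control replicates 1, 2 and 3 and 119, 112 and 113 CPM in the IL17D replicates. The libraries overlapped, and the log2 fold change was -0.082 (95% interval -0.18 to 0.014, adjusted p = 0.543 from edgeR). PPP1R15A, which encodes GADD34, the subunit that directs a phosphatase to eIF2, had a log2 fold change of 0.076 (95% interval -0.062 to 0.21). SESN2 and DDIT4, both inhibitors of mTORC1 signaling, had -0.081 and -0.021. CHAC1 had 0.018 (95% interval -0.25 to 0.29). Unadjusted p-values of these 5 genes lay between 0.0929 and 0.892 in edgeR's test, and the groups overlapped for all 5.

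**Figure D3:**
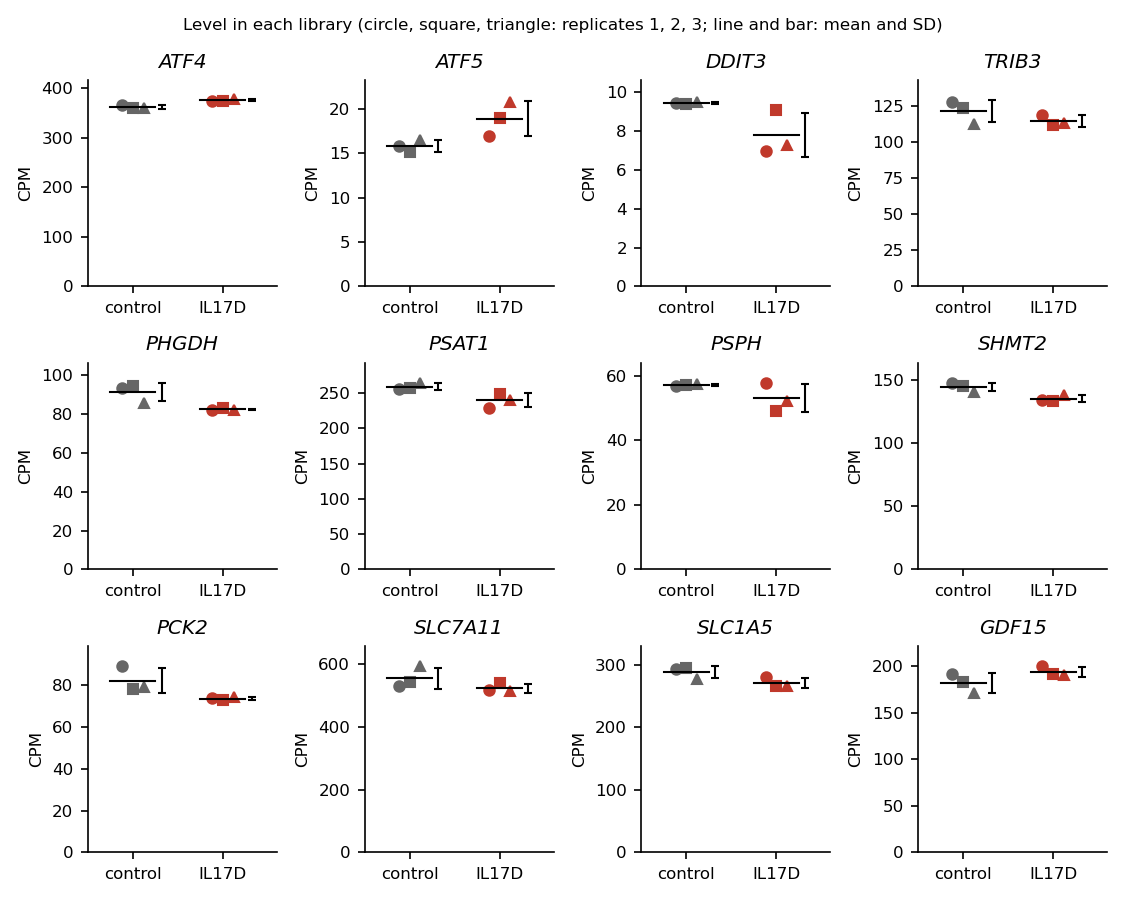
CPM in each library for 12 of the genes, with axes from 0. Grey symbols are control and red symbols IL17D-overexpressing libraries, with the mean as a line and the SD as a bar (n = 3). The groups do not overlap for ATF4, ATF5, DDIT3, PHGDH, PSAT1, SHMT2 and PCK2. Over the 34 genes they do not overlap for 9 (26.5%), against 15.8% of all tested genes. The fold changes of ATF5 and DDIT3 correspond to 19.2% and -17.5%, and those of the other genes shown are smaller in size.

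Enzymes of amino acid and one-carbon metabolism made up 4 of the 7 genes that were lower at an unadjusted p under 0.05, namely PHGDH, PSAT1, SHMT2 and PCK2. No enzyme was higher at that p, among 11 measured. Over all tested genes, 5.99% were lower at that p. The groups did not overlap, on the lower side, for 5 of the 11, against 8.31% of all tested genes. The median log2 fold change of the 11 was -0.11. None passed after adjustment.

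Serine is made from a glycolytic intermediate in successive steps by PHGDH, PSAT1 and PSPH. PHGDH (ENSG00000092621, chromosome 1, 119648411 to 119744226), the enzyme of the first step, had 93.6, 94.2 and 85.7 CPM in the control libraries and 82.1, 82.8 and 82.3 CPM in the IL17D libraries. The IL17D libraries were tightly grouped below the controls, of which control replicate 3 was the lowest. Its log2 fold change was -0.15 (standard error 0.050, 95% interval -0.25 to -0.045, unadjusted p = 0.00591, adjusted p = 0.170 from edgeR). Without control replicate 3, PHGDH had a log2 fold change of -0.19 and an adjusted p of 0.0432 in edgeR, and the adjusted p over all 13 alternatives ranged from 0.0432 to 0.472.

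PSAT1 (ENSG00000135069, chromosome 9, 78297143 to 78330093), the aminotransferase of the next step, had 255, 257 and 264 CPM in control replicates 1 to 3 and 229, 249 and 240.2 CPM in IL17D replicates 1 to 3. Every IL17D library was lower, with a difference of -0.11 in log2 (standard error 0.037, 95% interval -0.19 to -0.037, unadjusted p = 0.00470, adjusted p = 0.149 from edgeR) and the smallest p of the 34 genes. Of its 31-base stretches, 15.4% occur in other genes.

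PSPH, the phosphatase of the last step, had 56.7, 57.2 and 57.4 CPM in the control libraries. In IL17D replicates 1, 2 and 3 it had 57.7, 49.1 and 52.3 CPM. IL17D replicate 1 lay above the controls and the other two below, and the log2 fold change was -0.11 (95% interval -0.23 to 0.018, unadjusted p = 0.0914 in edgeR).

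SHMT2 (ENSG00000182199, chromosome 12, 57229327 to 57234935) converts serine to glycine in mitochondria. It had 147, 145 and 141 CPM in the control libraries and 134, 133 and 138 CPM in the IL17D libraries. The groups were separate by a narrow margin (log2 fold change -0.095, standard error 0.042, unadjusted p = 0.0281, adjusted p = 0.352 from edgeR).

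The next mitochondrial folate enzymes did not share one direction. MTHFD2 had 214 ± 1.34 CPM in control and 215 ± 5.13 CPM in IL17D-overexpressing cells (SD, n = 3 each), with a log2 fold change of 0.011 and a 95% interval of -0.064 to 0.086. ALDH1L2 was at 17.4 ± 1.38 CPM and 15.7 ± 0.368 CPM (SD, n = 3 each), a log2 fold change of -0.14 with an unadjusted p of 0.158 in edgeR and no overlap between the groups.

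PCK2 (ENSG00000100889, chromosome 14, 24094053 to 24110598), the mitochondrial phosphoenolpyruvate carboxykinase, had 88.9, 78.3 and 79.0 CPM in the control libraries. It had 73.6, 72.6 and 74.4 CPM in the IL17D libraries. Control replicate 1 stood above the other 5 libraries. The log2 fold change was -0.16 (standard error 0.053, 95% interval -0.27 to -0.051, unadjusted p = 0.00517, adjusted p = 0.158 from edgeR), and it was -0.097 without control replicate 1. GPT2, the mitochondrial alanine aminotransferase, had a log2 fold change of 0.036 and overlapping groups.

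CTH and CBS are the transsulfuration enzymes that make cysteine. CTH had 12.0, 12.1 and 8.89 CPM in control replicates 1, 2 and 3 and 12.4, 13.3 and 9.32 CPM in IL17D replicates 1, 2 and 3. The lowest library of each group carries the number 3, and the spread within groups exceeded the difference between them (log2 fold change 0.096, 95% interval -0.18 to 0.37).

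CBS and ASNS share sequence with other annotated genes, which limits their values. CBS had 216, 204 and 175 counts in control and 159, 201 and 184 counts in IL17D libraries. Its near-identical copy CBSL shares 55.9% of the 31-base stretches of CBS and was counted 10, 7 and 132 times in the control libraries, in order of replicate, and 15, 12 and 6 times in the IL17D libraries. Control replicate 3 thus stood apart from the other 5 libraries for CBSL. Alone, CBS had a log2 fold change of -0.14 (unadjusted p = 0.272 in edgeR). With the counts of CBS and CBSL summed, an alternative chosen after seeing the data, it was -0.37 (unadjusted p = 0.00413, adjusted p = 0.139 in edgeR), and the same sum without control replicate 3 gave -0.21 (unadjusted p = 0.1003). How reads of CBS were divided between the copies is not given in the sources used here.

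ASNS (ENSG00000070669, chromosome 7, 97852118 to 97872542), which encodes asparagine synthetase and is a classical ATF4 target, had 4.37, 3.94 and 4.66 CPM in the control libraries and 4.68, 4.44 and 4.27 CPM in the IL17D libraries. The libraries overlapped, with a log2 fold change of 0.045 (95% interval -0.33 to 0.42, adjusted p = 0.964 from edgeR). The annotated gene AC079781.5 covers 44.6% of the exon length of ASNS on the same strand. It had 25, 36 and 25 counts in control and 30, 27 and 29 counts in IL17D libraries, beside 71, 57 and 75 counts and 77, 73 and 61 counts for ASNS. The sums ran from 90 to 107 counts per library, and the log2 fold change of the sum was 0.027. How reads in both genes were counted is not given in the sources used here, so the level of ASNS is uncertain.

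**Figure D4:**
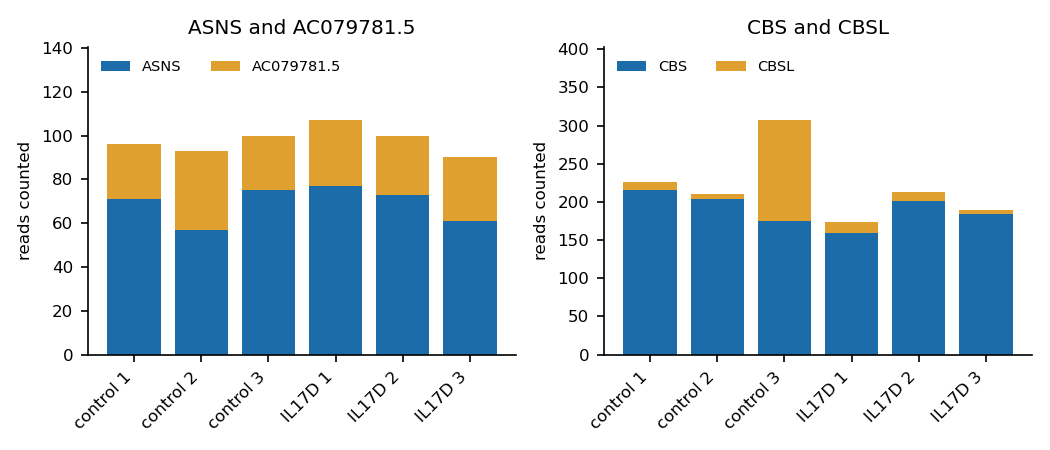
Reads counted per library on ASNS and the overlapping gene AC079781.5 (left) and on CBS and its copy CBSL (right), as stacked bars from 0. CBSL had 132 counts in control replicate 3 and 6 to 15 in the other libraries, while AC079781.5 had 25 to 36 counts throughout.

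Of the 6 amino acid transporters, 3 had a log2 fold change above 0 and 3 below. SLC7A5 had 3894 ± 69.9 CPM in control and 3989 ± 75.1 CPM in IL17D-overexpressing cells (SD, n = 3 each), and SLC3A2 had 1290.3 ± 23.5 CPM and 1306 ± 29.7 CPM (SD, n = 3 each). Their log2 fold changes, 0.035 and 0.018, had intervals that ended at 0.083 and 0.074, so a difference above 1.06-fold lay outside both. SLC7A1, the cationic amino acid transporter, had 0.029 (95% interval -0.051 to 0.11).

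SLC7A11, the cystine transporter that pairs with SLC3A2 and is also a target of the oxidative stress factor NRF2, had 531, 543 and 594 CPM in the control libraries. The IL17D libraries had 517, 540.4 and 515 CPM. The groups overlapped, and control replicate 3 was the highest. The log2 fold change was -0.086 (standard error 0.035, unadjusted p = 0.0205, adjusted p = 0.311 from edgeR) and -0.034 without control replicate 3.

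SLC1A5, the glutamine transporter ASCT2, had 293, 295 and 277 CPM in control and 280, 266 and 266 CPM in IL17D libraries. The lowest control library lay within the IL17D range, and the log2 fold change was -0.092 (standard error 0.036, unadjusted p = 0.0163, adjusted p = 0.283 from edgeR). Its relative SLC1A4, a transporter of serine, alanine and other neutral amino acids, had -0.091 with a wider interval (-0.22 to 0.036).

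XPOT, which exports tRNA from the nucleus, had 223 ± 5.59 CPM in control and 221 ± 4.48 CPM in IL17D-overexpressing cells (SD, n = 3 each). Both genes for secreted proteins had a log2 fold change above 0 without passing after adjustment. STC2, a secreted glycoprotein, had 53.2, 47.8 and 48.9 CPM in the control libraries and 52.8, 56.0 and 56.1 CPM in the IL17D libraries. GDF15, a stress-induced cytokine that is also a p53 target, had 192, 183 and 171 CPM and 199.9, 191 and 190.5 CPM. In both genes control replicate 1 lay within the IL17D range. The log2 fold changes were 0.14 (standard error 0.061, adjusted p = 0.371 from edgeR) and 0.091 (standard error 0.042, adjusted p = 0.377 from edgeR). Without control replicate 3, that of GDF15 was 0.048. VLDLR, a lipoprotein receptor, had -0.064 (95% interval -0.23 to 0.099).

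Other genes of the pathway were read from lists, which were also chosen with earlier results of these data known. The list of eIF2 subunits, eIF2B subunits and their regulators had 14 genes, and none was called at an adjusted p or had an unadjusted p under 0.05. Its median log2 fold change was -0.0074, and the smallest p in each direction were those of PPP1R15B, a relative of GADD34 (0.084, unadjusted p = 0.0616 in edgeR), and EIF2AK1, the kinase HRI (-0.055, unadjusted p = 0.178 in edgeR). The amino acid sensing list of 15 genes around mTORC1 also had no adjusted call, with a median of 0.0095. Its smallest p-values in edgeR were those of RPTOR (0.11, unadjusted p = 0.0182) and RRAGC (-0.33, unadjusted p = 0.0410). The groups overlapped for both genes. RRAGC had 11.5, 6.71 and 9.08 CPM in the control libraries, and control replicate 2 was below every IL17D library.

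Aminoacyl-tRNA synthetases charge tRNA with amino acids, and many are ATF4 targets. Of the 20 cytosolic genes, 15 had a log2 fold change under 0, against 7896 of 15754 tested genes, and the median was -0.031. At an unadjusted p under 0.05 in edgeR, 3 of the 20 were lower, against 5.99% of all tested genes. The groups did not overlap, on the lower side, for 4 of the 20, against 8.31%. After adjustment 1 was called lower, against 0.908%. AARS, the alanyl-tRNA synthetase, was called lower, with 374 ± 7.69 CPM in control and 343 ± 7.52 CPM in IL17D-overexpressing cells (SD, n = 3 each; log2 fold change -0.13, standard error 0.033, adjusted p = 0.0438 from edgeR). All 3 IL17D libraries were lower than all 3 controls. This call was lost without control replicate 1 or 2 or without IL17D replicate 1, 2 or 3, with adjusted p-values in edgeR of 0.0808, 0.220, 0.150, 0.213 and 0.1005.

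Of a further 23 ATF4 and CHOP targets, 22 were tested and 1 was called, against 1.58% of all tested genes in either direction. Of the 22, 9 had a log2 fold change above 0 and 13 below, with a median of -0.011. TNFRSF10B, the death receptor DR5 and a known CHOP and p53 target, was called higher, at 341 ± 13.96 CPM in control and 384 ± 3.30 CPM in IL17D-overexpressing cells (log2 fold change 0.17, standard error 0.034, adjusted p = 0.00305 from edgeR, n = 3 each). DDIT3, the gene of CHOP itself, had -0.28 without a call. SLC38A2, an amino acid transporter induced by ATF4, had 0.12 (adjusted p = 0.0728 from edgeR), and ATF3 and GADD45A had 0.19 and 0.17 (adjusted p = 0.373 and 0.292 from edgeR). The groups did not overlap for TNFRSF10B, SLC38A2, ATF3 and GADD45A, all higher in IL17D libraries. Of these, SLC38A2, ATF3 and GADD45A were named after their values were seen. The most negative values were those of SLC43A1 (-0.41, unadjusted p = 0.0957 in edgeR) and KLHL24 (-0.31, unadjusted p = 0.107 in edgeR), with overlapping groups. Over the list, the groups did not overlap for 5 higher and 1 lower genes, against 7.48% and 8.31% of all tested genes. At an unadjusted p under 0.05 in edgeR, 4 of the 22 were higher, against 5.59% of all tested genes. No gene of the list was called lower or had a lower value at an unadjusted p under 0.05. FGF21 was below the filter on low counts.

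Among 9 other folate and glycine enzymes, 8 were tested and none was called or had an unadjusted p under 0.05 in edgeR, with a median of -0.037. The smallest p on each side were those of MTHFD1 (-0.058, unadjusted p = 0.150) and TYMS (0.087, unadjusted p = 0.185).

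Other stress programs were compared in the same way. In a list of 19 endoplasmic reticulum chaperones and ATF6 or XBP1 targets, 15 genes were below 0, the median was -0.057 and 6 had an unadjusted p under 0.05, all lower. Over all tested genes, 7896 of 15754 were below 0 and 5.99% were lower at that p. None of the 19 was called. The smallest p were those of HYOU1 (-0.14, adjusted p = 0.1005 from edgeR) and, on the positive side, DNAJB9 (0.070, unadjusted p = 0.528).

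In a list of 12 NRF2 targets, 10 were below 0, with a median of -0.086, 7 were lower at an unadjusted p under 0.05 and 1 was called lower, against 5.99% and 0.908% of all tested genes. A549 cells carry a KEAP1 mutation and are known for constitutive NRF2 activity. AKR1B10, an aldo-keto reductase, fell to 2523 ± 41.1 CPM from 2969 ± 35.9 CPM (n = 3 each, SD, log2 fold change -0.23, adjusted p = 3.9e-08 from edgeR). No gene of this list was called higher. The part of NRF2 targets in the values of SLC7A11 or the serine enzymes was not tested.

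**Figure D5:**
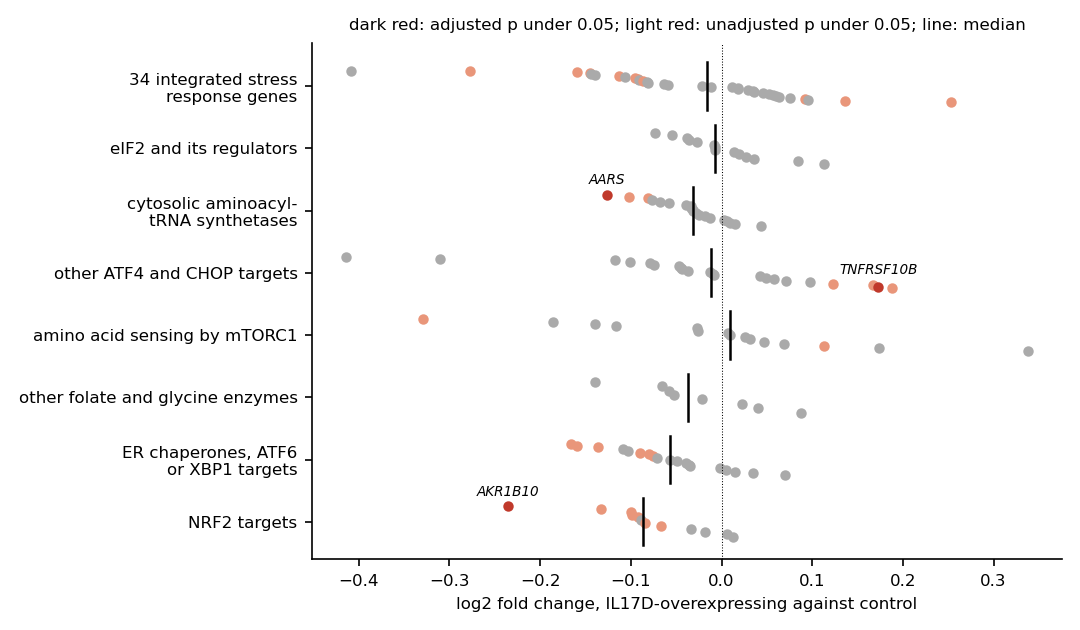
Log2 fold change of each tested gene in the 34-gene set and in 7 related lists, IL17D-overexpressing against control cells. Black lines are list medians, dark red points passed an adjusted p of 0.05 and light red points an unadjusted p of 0.05. AARS and AKR1B10 on the lower side and TNFRSF10B on the higher side are the only dark red points.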

How the data were processed

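RNA-seq counts from 3 IL17D-overexpressing and 3 control libraries of A549 cells were analyzed. A single table of raw read counts was deposited by the authors, with no scaling. The submitters' processing notes name Bowtie2 and hg38 without a role, and the counting tool and strand setting are not given in the sources used here. Gene IDs of all 58735 genes matched GENCODE release 29 on GRCh38, and start and end were the same for 58724. The deposited gene length, used for CPM per kb, equaled the length of the merged exons for 58724 genes.

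Groups were taken from the sample titles. Genes were filtered by edgeR's filterByExpr, scaled by TMM and compared with edgeR's quasi-likelihood test (glmQLFit, glmQLFTest) in R 4.3.3 with edgeR 4.0.16, with Benjamini-Hochberg adjustment over 15754 genes. All tests are two-sided. The standard error was derived from the F statistic, and the 95% interval from it. CPM use TMM-scaled library sizes, and ± gives the SD over 3 libraries. Summed marker levels are CPM on total counts. Precision covers counting error and the spread of 3 libraries, and library totals were 14319398 to 16521021 counts. A count of 0 allows 3 counts, which is 0.182 to 0.210 CPM. Library pairs within groups differed by more than counting error (chi-square per gene of 2.19 to 3.36). Alternatives were DESeq2 1.42.0, limma 3.58.1 (voom), RLE size factors, total counts, 2 other filters on low counts, a replicate block and leaving out each library. The fit was tested on simulated counts.

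The 34 genes and all lists were chosen with earlier results of these data known. The genes named are IL17D, all 34 genes and the genes that share sequence. In each related list they are the called genes, or else those with the smallest p on each side. The genes that share sequence were added after their values were seen, as were SLC38A2, ATF3, GADD45A, SLC43A1 and KLHL24. Shared sequence was measured as 31-base stretches of GENCODE transcripts. Some genes of the related lists are not reported here and were left out of the list counts.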

Additional observations from a re-analysis of the deposited data

How the results depend on the processing

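None of the 34 genes was called higher in any of the 13 alternatives, and PHGDH alone was called lower in 1 of them, without control replicate 3, so that leaving out 1 library gave 0 to 1 called lower. DESeq2's Wald test gave 1 gene of the set higher at an unadjusted p under 0.05, and 619 of all tested genes lower, against 943 in edgeR. Leaving out 1 library gave 0 to 3 genes of the set higher and 3 to 6 lower at an unadjusted p under 0.05. Among all tested genes it gave 70 to 133 called higher and 77 to 137 called lower, against 106 and 143. The lowest were 70 and 77 without IL17D replicate 3, and 82 lower without IL17D replicate 1 and 95 lower without control replicate 2 were also fewer by over 1.5 times. The sign changed for 5 of the 34 genes when 1 library was left out. The log2 fold change ran from -0.015 to 0.10 for ASNS, from -0.030 to 0.11 for CHAC1, from -0.037 to 0.23 for CTH, from -0.0051 to 0.030 for MTHFD2 and from -0.032 to 0.0052 for XPOT. The cause was not tested. In the remaining 29 genes the sign was kept in all 13 alternatives, but for 20 of them leaving out 1 library moved the log2 fold change by over 1.5 times. It was -0.0053 for VLDLR without IL17D replicate 3, -0.026 for SLC1A4 without control replicate 3, -0.021 for CBS without IL17D replicate 1, -0.052 for PSPH without IL17D replicate 2, -0.081 for ALDH1L2 without control replicate 2 and -0.041 for TRIB3 without control replicate 1. The replicate numbers did not pair the libraries (correlations of same-numbered deviations of 0.010, -0.012 and -0.015, and no library correlated best with the library of its own number). With the replicate number as a block, 115 genes were called higher and 157 lower, none of them among the 34, and AARS had an adjusted p of 0.0580 in edgeR. The intervals of NUPR1, DDIT3 and ASNS were the widest, and their counts were low. For DDIT3 and ASNS, depth and the unknown handling of reads shared with overlapping genes cannot be told apart.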
